A study of Mus musculus with 24 samples.

Results

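The 10 genes described here build the intestinal brush border and hold it together: Vil1, Espn and Pls1, Eps8, Ezr, Myo1a and Myo7b, and Cdhr2, Cdhr5 and Ush1c. They are 10 of 57126 gene identifiers in the count table, and all 10 were among the 13125 genes with enough counts to be tested. They were chosen by their known place in the microvillus, with earlier results of these data known. A microvillus is a finger of membrane around a core of parallel actin filaments, and the packed microvilli of an absorptive enterocyte form its brush border, which carries the digestive enzymes and nutrient carriers. Bundling proteins tie the filaments, a tip complex governs their length, linkers and motors join the core to the membrane, and cadherins with their scaffolds bridge the tips of neighbouring microvilli so that they stand at equal height and spacing.

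Pieces of ileum, all from male C57BL/6J mice of wild-type genotype after a fast of 4 h, were kept in culture with an additive for 8 h. Their RNA was profiled by 3' mRNA sequencing, which places reads near the end of each transcript. The groups used were tCDCA (taurine-conjugated chenodeoxycholic acid, a bile acid; 4 libraries), extract CME(-) from WT donors (4) and from Asbt-/- donors (3), extract CME(+) from WT donors (3) and from Asbt-/- donors (4), and the solvent DMSO (3). Asbt, encoded by Slc10a2, is the carrier by which the ileum takes up bile acids. The genotype, KO in the titles, is that of the animal that gave the extract, while the treated tissue was wild-type in every library. The labels leave CME unexplained. They mention extracts both depleted and not depleted of bile acids, and CME(+) was read here as the depleted one. Asbt-/- CME(-) replicate 2 has CAM in place of CME in 1 label, and its title set its group. A concentration of 200 µM is given for replicates 2 to 4 of tCDCA and CME(-) only. The labels give no age, and do not say that libraries of a group stem from different animals. A p-value therefore speaks only of the spread among these libraries, which can be technical.

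The 21 libraries used held 2.755 to 5.602 M counts each. Replicate 1 of every group but DMSO, 5 libraries, carries another column prefix and is called the first run here, and the other 16 are called the second run. Levels are given as CPM (counts scaled to a common library size) within each run, and the run was a term of the model. The submitters' labels mark 3 further libraries as removed, among them DMSO replicate 1, which had another DMSO concentration (0.5% against 0.6%). Mitochondrial rRNA took 5.29% of the counts in tCDCA replicate 3, against a maximum of 33.14% in tCDCA libraries of the second run and 19.46 to 34.6% with DMSO. The sum of 8 general epithelial markers (Epcam, Cdh1, Cldn7, Cdh17, Lgals4, Krt8, Krt18 and Krt19) was 4661 to 5881 CPM in second-run tCDCA libraries and 5424 to 6122 CPM in DMSO libraries, so epithelial RNA was present in all of them.

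RefSeq's GRCm38.p6 promoter windows, from 250 bases before to 50 bases after a transcript start, were available for 8 of the genes, in 10 windows. The windows were searched for 7 motifs of factors known in gut epithelium, and those with a match are shown, from 4 genes, so that the matched letters can be read in place. The windows of Pls1 and Myo1a, which fell with tCDCA at least as far as Vil1, hold no match, nor do those of Ezr and Ush1c and the other Espn windows. Capitals mark the matches. The Vil1 window lies at chr1:74409134-74409433 (plus strand), the third Espn window at chr4:152128876-152129175 (minus strand), Cdhr5 at chr7:141276737-141277036 (minus strand) and Cdhr2 at chr13:54701213-54701512 (plus strand), each printed 5′ to 3′ on the gene's own strand.
Vil1: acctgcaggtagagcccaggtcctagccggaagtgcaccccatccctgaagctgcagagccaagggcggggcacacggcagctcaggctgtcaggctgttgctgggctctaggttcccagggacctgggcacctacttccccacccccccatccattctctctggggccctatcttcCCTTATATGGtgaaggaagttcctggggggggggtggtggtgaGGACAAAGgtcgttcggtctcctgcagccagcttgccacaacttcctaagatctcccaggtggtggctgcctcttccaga
Espn: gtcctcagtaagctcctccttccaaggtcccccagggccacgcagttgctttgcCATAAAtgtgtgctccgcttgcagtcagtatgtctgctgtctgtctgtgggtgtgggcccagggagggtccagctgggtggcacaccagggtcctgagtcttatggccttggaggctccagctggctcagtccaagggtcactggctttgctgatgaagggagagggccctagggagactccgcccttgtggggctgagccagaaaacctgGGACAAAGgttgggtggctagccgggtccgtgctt
Cdhr5: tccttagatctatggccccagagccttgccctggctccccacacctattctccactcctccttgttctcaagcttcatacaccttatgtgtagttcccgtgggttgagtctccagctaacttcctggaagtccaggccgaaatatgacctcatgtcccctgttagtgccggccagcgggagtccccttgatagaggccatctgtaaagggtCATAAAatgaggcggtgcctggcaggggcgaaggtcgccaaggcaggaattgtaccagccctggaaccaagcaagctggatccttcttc
Cdhr2: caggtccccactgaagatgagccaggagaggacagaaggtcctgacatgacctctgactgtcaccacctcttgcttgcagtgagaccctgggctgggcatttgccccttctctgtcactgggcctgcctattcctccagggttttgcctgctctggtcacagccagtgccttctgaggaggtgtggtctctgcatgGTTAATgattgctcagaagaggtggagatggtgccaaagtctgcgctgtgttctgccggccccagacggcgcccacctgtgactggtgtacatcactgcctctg

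The Vil1 window held the serum response factor motif (CArG box), 73 to 64 bases before the start, which was found in 1.63% of 32851 promoter windows searched on both strands. It also held the short HNF4 motif GGNCAAAG, which stood in 5.62% of all windows. The same HNF4 letters stood in the third Espn window, just after its start. The CDX motif TTTATG, found in 11.9% of windows, was in the third Espn window and in that of Cdhr5, both times on the reverse strand. The letters GTTAAT, one arm of the HNF1 motif, were in the Cdhr2 window and in 7.1% of all windows. A longer HNF4 motif, spelled CAAAGTNCA and found in 1.41% of all windows, was in none of the 10. The letters TGATAAG of the GATA factors, found in 2.3% of all windows, were not there either. The TATA box, in 13.6% of all windows as the letters TATAAA, was also without a match in the 10. No printed match overlaps another. A match is a run of letters and not a measured binding site.

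With tCDCA, 7 of the 10 genes fell relative to DMSO and none rose (edgeR quasi-likelihood test, Benjamini-Hochberg adjusted p under 0.05). Over all genes tested, 3.16% were called lower in this comparison and 2.52% higher. Without scaling factors the balance of all calls turned, with 198 genes lower and 229 higher, and 3 of the 10 genes (Espn, Pls1 and Myo1a) were called. The largest changes were those of the bundler Espn, 2.63-fold lower, and of the motor Myo1a, 2.5-fold lower. The median log2 fold change of the 10 genes was -0.90, against 0.00 for all genes tested, and all 10 values were below 0, as were 49.8% of all genes. In bulk tissue, fewer enterocytes and less RNA per enterocyte cannot be told apart.

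**Figure D1:**
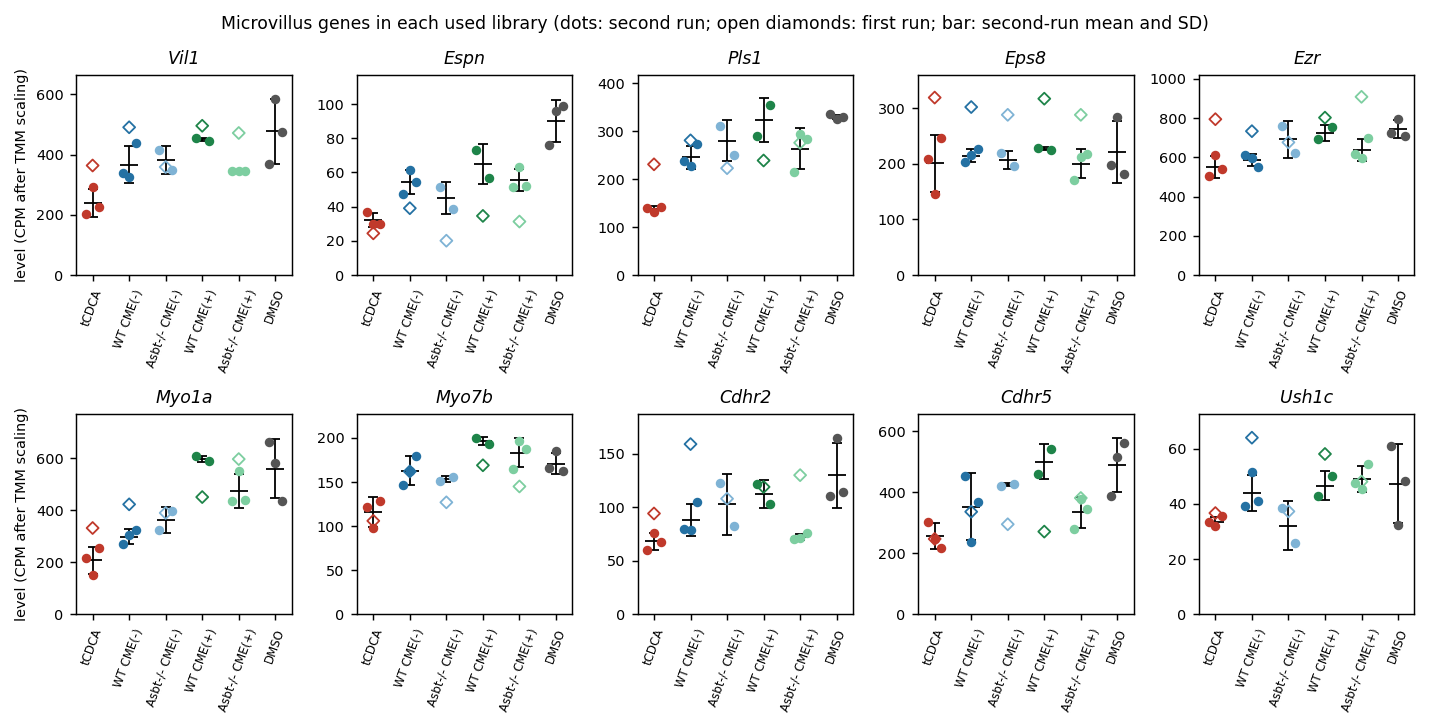
Level of each of the 10 genes (y axis, CPM after TMM scaling) in every used library, by group (x axis). Dots are second-run libraries, open diamonds first-run libraries, and the bar is the second-run mean with its SD. For Vil1, Espn, Pls1, Ezr, Myo1a, Myo7b, Cdhr2 and Cdhr5 the tCDCA dots lie below all dots of DMSO. Those of Eps8 and Ush1c overlap the DMSO range.

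The 3 bundlers of the actin core fell together. Vil1 (ENSMUSG00000026175), which encodes villin, a protein that bundles, caps and at high calcium severs actin filaments, was at 202, 292 and 225 CPM in the second-run tCDCA libraries, against 370, 586 and 475 CPM with DMSO. All 3 tCDCA values lay below all 3 DMSO values. The difference was -0.92 ± 0.17 log2 units (SE), 1.89-fold lower, with an adjusted p of 0.000516. Espn (ENSMUSG00000028943), which encodes espin, a bundler that lengthens and stiffens the core, had 36.7, 29.8 and 29.8 CPM with tCDCA and 75.8, 95.8 and 98.6 CPM with DMSO. The highest tCDCA library stood far under the lowest DMSO library, and the fitted difference was -1.40 ± 0.19 (adjusted p 5.54e-06). Pls1 (ENSMUSG00000049493), which encodes the bundler plastin 1, also called fimbrin, had 140, 132 and 143 CPM with tCDCA and 335, 326 and 330 CPM with DMSO. In the second run the libraries of each group lay close together and the groups were well apart. The first-run tCDCA library, at 231 CPM, lay within the 223 to 281 CPM of the first-run extract libraries. The difference was -1.06 ± 0.18 (adjusted p 0.000109).

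Eps8 and Ezr, the tip protein and the membrane linker, were not called. Eps8 (ENSMUSG00000015766), whose product caps and bundles actin at the tip, was at 209, 146 and 247 CPM with tCDCA and at 197, 284 and 182 CPM with DMSO. The groups overlapped, and the difference of -0.10 ± 0.17 had a 95% interval of -0.44 to 0.23 and an adjusted p of 0.829. Its sign turned without scaling (0.02), without the run term (0.06), and without DMSO replicate 3 (0.12) or tCDCA replicate 3 (0.05). Ezr (ENSMUSG00000052397), encoding ezrin, which ties the actin core to the membrane, had 503, 613 and 538 CPM with tCDCA and 726, 796 and 710 CPM with DMSO. The second-run groups did not overlap, but the joint model gave -0.38 ± 0.16 with an adjusted p of 0.173. The interval for Ezr, -0.69 to -0.06, leaves room for a small decrease.

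Both motors fell. Myo1a (ENSMUSG00000025401) encodes brush border myosin I, which links the core to the surrounding membrane, and was at 216, 152 and 254 CPM with tCDCA, against 663, 581 and 437 CPM with DMSO. The lowest DMSO library was still above the highest tCDCA library, and the difference was -1.32 ± 0.19 (adjusted p 1.01e-05). Myo7b (ENSMUSG00000024388) encodes a myosin of the complex that places the adhesion cadherins at the tips, and it had 122, 97.4 and 129 CPM with tCDCA and 166, 185 and 162 CPM with DMSO. Its change was the smallest of those called, -0.54 ± 0.15 (adjusted p 0.0214). The Myo7b call was lost without tCDCA replicate 3 (adjusted p 0.0653) or without DMSO replicate 3 (0.127).

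Of the adhesion genes, the 2 cadherins fell and the scaffold was not called. Cdhr2 (ENSMUSG00000034918) and Cdhr5 (ENSMUSG00000025497) encode protocadherins that bind each other between neighbouring tips. Cdhr2 had 60.4, 76.2 and 67.9 CPM with tCDCA and 111, 165 and 114 CPM with DMSO, without overlap and with a difference of -0.94 ± 0.19 (adjusted p 0.00106). Cdhr5 had 303, 248 and 218 CPM with tCDCA and 389, 516 and 562 CPM with DMSO, again without overlap, and differed by -0.89 ± 0.20 (adjusted p 0.00444). Ush1c (ENSMUSG00000030838), encoding harmonin, the scaffold that holds the cadherin tails and Myo7b together, had 33.3, 32.1 and 35.5 CPM with tCDCA and 61.1, 32.5 and 48.2 CPM with DMSO. DMSO replicate 3 fell within the tCDCA range, and the difference of -0.52 ± 0.20 did not pass (adjusted p 0.132, interval -0.93 to -0.12). In all, 8 of the 10 genes were lower in every second-run tCDCA library than in every DMSO library, as were 9.78% of all genes tested.

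The first run gave smaller differences. It holds tCDCA replicate 1 and, set aside by the labels for its DMSO concentration, DMSO replicate 1. Between these single libraries 8 of the 10 genes were lower with tCDCA, with a median log2 ratio of -0.22. Myo1a was at 332 CPM in the tCDCA library and 438 CPM in that DMSO library, and Espn at 24.4 and 28.0 CPM in the same order. Eps8, at 319 and 272 CPM, was higher with tCDCA, and Ezr was nearly level at 794 and 786 CPM. With 1 library a side this has no replicate check. In 5 genes, Myo1a, Myo7b, Cdhr2, Cdhr5 and Ush1c, the first-run tCDCA library was below all 4 first-run extract libraries. The shares of all genes with these first-run patterns were not computed, so both counts have nothing to be set against. When DMSO replicate 1 was added to the model, Espn, Pls1, Myo1a, Vil1, Cdhr2, Cdhr5 and Myo7b were still called.

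**Figure D2:**
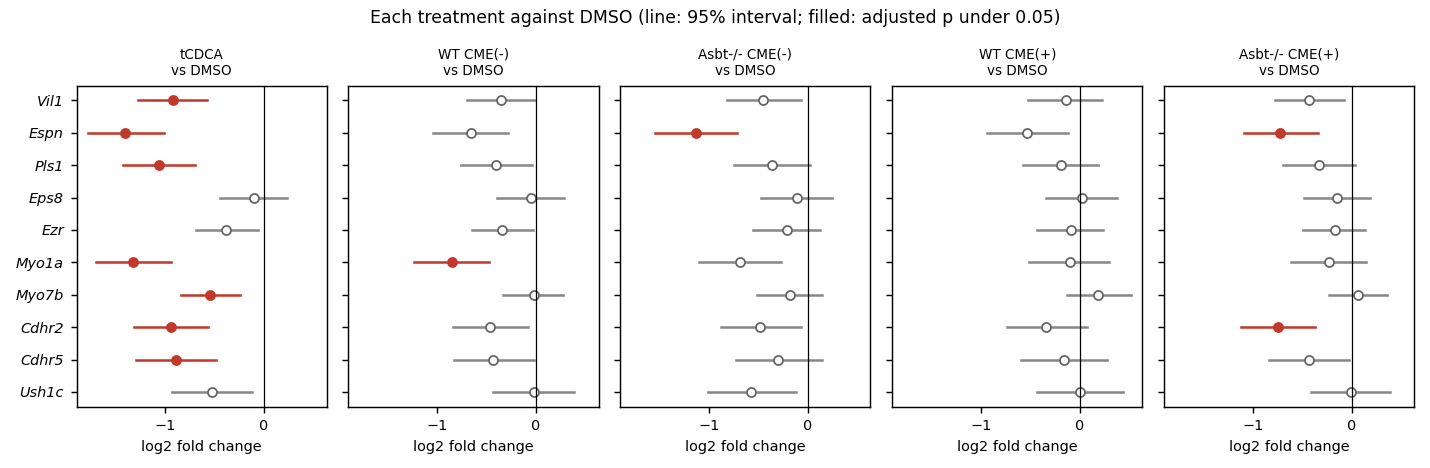
Log2 fold change over DMSO (x axis) of each gene (y axis) for tCDCA and the 4 extract groups; points are model estimates, lines 95% intervals, and filled points have an adjusted p under 0.05. All 10 tCDCA points lie below 0, from -0.10 for Eps8 to -1.40 for Espn; the WT CME(+) points lie between -0.53 and 0.19.

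The extracts were compared with the same DMSO libraries, so these comparisons and the one above are not independent of each other. WT CME(-) gave 1 called gene among the 10, Myo1a, where 0.19% of all genes were called lower. Myo1a had 269, 306 and 323 CPM in the second-run WT CME(-) libraries, below all DMSO libraries, and differed by -0.85 ± 0.19 (adjusted p 0.0314). This call was lost without any single WT CME(-) library and without DMSO replicate 2 or 3 (adjusted p 0.0567 to 0.189). All 10 values were negative with WT CME(-), with a median of -0.38 against -0.01 for all genes. In the second run, 5 of the 10 genes (Espn, Pls1, Myo1a, Cdhr2 and Ezr) were lower in every WT CME(-) library than in every DMSO library, as were 6.82% of all genes.

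Asbt-/- CME(-) gave 1 called gene, Espn, where 0.571% of all genes were called lower. Espn was at 51.5 and 38.4 CPM in the second-run Asbt-/- CME(-) libraries and at 20.1 CPM in the first-run one. The other first-run libraries used had 24.4 to 39.1 CPM. The difference from DMSO was -1.13 ± 0.21 (adjusted p 0.00291), and it did not pass without Asbt-/- CME(-) replicate 4 (adjusted p 0.0609). Myo1a differed by -0.69 ± 0.20 and did not pass (adjusted p 0.0941). The 10 values ran from -1.13 to -0.11 with a median of -0.41. Espn, Pls1, Myo1a and Myo7b, 4 of the 10, were lower in both second-run Asbt-/- CME(-) libraries than in every DMSO library, as were 14.2% of all genes.

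WT CME(+) gave no called gene among the 10 by edgeR or by DESeq2. At an unadjusted p under 0.05 there were 1 of the 10 genes and 1317 of the 13125 genes tested. In all, 0.175% of the genes tested were called. The 10 values had a median of -0.12, with Espn lowest at -0.53 ± 0.20 (adjusted p 0.337). Myo1a was at 607 and 589 CPM in the second-run WT CME(+) libraries, inside the DMSO range. Myo7b, at 200 and 193 CPM, lay above all DMSO libraries, with a difference of 0.19 ± 0.16 (adjusted p 0.744). Espn was the 1 gene lower in both second-run WT CME(+) libraries than in every DMSO library, a pattern of 12.1% of all genes.

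Asbt-/- CME(+) gave 2 called genes, Espn and Cdhr2, where 0.922% of all genes were called lower. Espn had 51.7, 63.2 and 52.2 CPM in the second-run Asbt-/- CME(+) libraries and differed by -0.72 ± 0.19 (adjusted p 0.0276). Cdhr2 had 70.2, 71.0 and 75.9 CPM there, and differed by -0.75 ± 0.19 (adjusted p 0.0212). In all, 6 of the 10 genes (Vil1, Espn, Pls1, Cdhr2, Cdhr5 and Ezr) were lower in every second-run Asbt-/- CME(+) library than in every DMSO library, as were 11.2% of all genes. Neither call held without DMSO replicate 3 (adjusted p 0.173 for Espn and 0.31 for Cdhr2), and neither held without Asbt-/- CME(+) replicate 2 or without replicate 4. The Espn call was also lost without DMSO replicate 4, and that of Cdhr2 without Asbt-/- CME(+) replicate 3.

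Set directly against WT CME(+), tCDCA gave a median of -0.73 over the 10 genes. In this comparison 6 of the 10 genes were called lower and none higher, where 1.06% of all genes were called lower. Myo1a differed by -1.22 ± 0.19 (adjusted p 0.000193), Pls1 by -0.87 ± 0.17 (0.00308), Espn by -0.87 ± 0.19 (0.0078), Vil1 by -0.77 ± 0.17 (0.0078), Myo7b by -0.74 ± 0.15 (0.00286) and Cdhr5 by -0.73 ± 0.20 (0.0466). Myo1a libraries ranged from 152 to 254 CPM with tCDCA and reached 607 and 589 CPM with WT CME(+), all in the second run. The first-run libraries had 332 CPM with tCDCA and 451 CPM with WT CME(+). For 9 of the 10 genes, all but Eps8, every second-run tCDCA library lay below both WT CME(+) libraries, as for 14.7% of all genes. With WT CME(+) replicate 3 or replicate 4 left out, 3 of the 6 calls were left, and that of Cdhr5 was also lost without tCDCA replicate 2, 3 or 4.

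Against Asbt-/- CME(+), 4 genes were called lower, where 1.06% of all genes were, and the 10 values had a median of -0.50, with 9 of them negative. Myo1a differed by -1.09 ± 0.17 (adjusted p 0.00035), Pls1 by -0.73 ± 0.16 (0.00891), Espn by -0.68 ± 0.18 (0.0287) and Myo7b by -0.61 ± 0.14 (0.00891). Every second-run tCDCA library lay below every second-run Asbt-/- CME(+) library for 6 of the 10 genes, as for 9.5% of all genes. Without Asbt-/- CME(+) replicate 3, Myo1a was the 1 gene of these that passed, and the Espn call was lost without any single library of either group but tCDCA replicate 1 and Asbt-/- CME(+) replicate 2. Cdhr2, which was as low in second-run Asbt-/- CME(+) libraries (70.2 to 75.9 CPM) as with tCDCA (60.4 to 76.2 CPM), differed by -0.19 ± 0.17.

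Fewer of the 10 genes were called against the CME(-) forms, where fewer of all genes were called too. Averaged over the donors, whether tCDCA differed unequally from both forms is the same test as CME(-) against CME(+), given below. Of the 10 genes Myo1a alone was called there, with the limits given there. Against WT CME(-) the 10 values were all negative with a median of -0.49. In that comparison Espn (-0.73 ± 0.18, adjusted p 0.0409) and Pls1 (-0.66 ± 0.16, adjusted p 0.045) were called lower with tCDCA, where 0.274% of all genes were, and neither call held without tCDCA replicate 3 or 4 or WT CME(-) replicate 1, 3 or 4 (adjusted p 0.0727 to 0.204). That of Pls1 was lost without tCDCA replicate 2 or WT CME(-) replicate 2 as well. Second-run tCDCA libraries lay below all second-run WT CME(-) libraries for 7 of the 10 genes, as for 7.44% of all genes. Pls1 was at 132 to 143 CPM with tCDCA and 228 to 273 CPM with WT CME(-) in the second run, without overlap. Against Asbt-/- CME(-) none of the 10 genes was called by edgeR, where 0.114% of all genes were, and 1 by DESeq2. At an unadjusted p under 0.05 there were 6 of the 10 genes and 1090 of the 13125 genes tested. The 10 values there had a median of -0.41, with Pls1 at -0.70 ± 0.17 (adjusted p 0.116). Leaving out tCDCA replicate 1 or Asbt-/- CME(-) replicate 1 gave 1 call. For 8 of the 10 genes the second-run tCDCA libraries lay below both Asbt-/- CME(-) libraries, as for 12.1% of all genes. The comparisons of tCDCA with each extract share the tCDCA libraries.

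**Figure D3:**
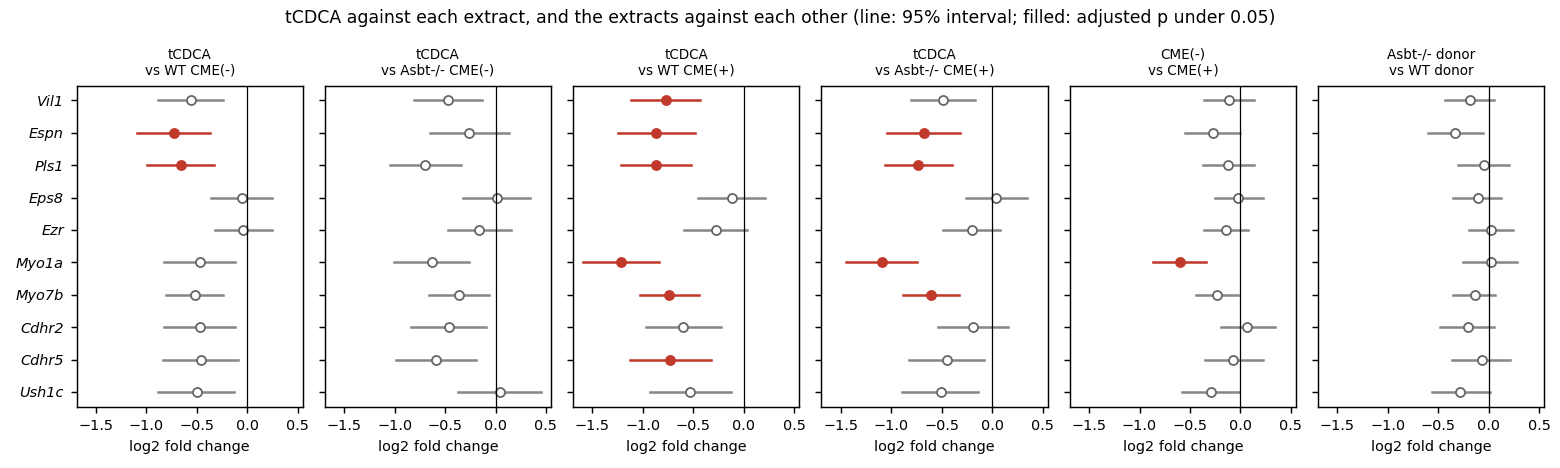
Log2 fold change (x axis) of each gene (y axis) for tCDCA over each extract, for CME(-) over CME(+) and for Asbt-/- over WT donors; lines are 95% intervals and filled points have an adjusted p under 0.05. Filled points are most frequent for tCDCA over WT CME(+), where 6 of 10 are filled; Myo1a alone is filled for CME(-) over CME(+).

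The forms of the extract were compared over both donors, which asks what the undepleted extract adds. Myo1a was lower with CME(-) than with CME(+), and it was the 1 called gene of the 10, where 0.282% of all genes were called lower. It was at 269 to 323 CPM with WT CME(-) and 326 to 398 CPM with Asbt-/- CME(-) in the second run, against 589 to 607 CPM with WT CME(+) and 434 to 551 CPM with Asbt-/- CME(+). The second-run groups of the 2 forms did not overlap. The difference was -0.60 ± 0.13, 1.52-fold lower, with an adjusted p of 0.026. With the replicate number as a block in place of the run, the difference was -0.59 and the call was lost (adjusted p 0.0665), with 22 genes called over the table against 57 in the model with the run. In a fit of the extract libraries alone, the difference was -0.51 with the extract donor as a block (adjusted p 0.0155, 109 genes called) and -0.59 with the run in place of that block (adjusted p 0.00101, 206 genes called). The call was lost in 9 of the 14 fits that left out a single extract library (adjusted p 0.0507 to 0.113), namely WT CME(-) replicate 2, 3 or 4, Asbt-/- CME(-) replicate 1 or 2, WT CME(+) replicate 3 or 4, and Asbt-/- CME(+) replicate 1 or 3. The other 9 genes had values from -0.29 for Ush1c to 0.07 for Cdhr2.

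The donor's genotype gave no called gene among the 10 or among all genes by edgeR (0.0% called). At an unadjusted p under 0.05 there were 686 genes, 1 of them a microvillus gene, and DESeq2 called 1 gene and none of the 10. Espn had the largest difference between Asbt-/- and WT donors, -0.33 ± 0.13 (adjusted p 0.943), and the intervals of the 10 genes reached from -0.60 to 0.28. The difference between both donors in the effect of the form was not called for any gene by edgeR or by DESeq2, with 491 genes and none of the 10 at an unadjusted p under 0.05. Over all 6 groups at once, 6 of the 10 genes differed somewhere (Vil1, Espn, Pls1, Myo1a, Myo7b and Cdhr2), where 3.71% of all genes did, and Cdhr5 missed with an adjusted p of 0.0568.

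The genes around the 10 moved less uniformly with tCDCA. The 6 lists of other brush border genes hold 54 genes, of which 53 were tested, and 3 of these rose and 6 fell relative to DMSO. Their median was -0.18, against -0.90 for the microvillus genes and 0.00 for all genes. Of 8 paralogs that lie outside the brush border core, 4 were tested and none was called, with a median of 0.18. Among linkers and scaffolds, Pdzk1, a PDZ scaffold of apical carriers, was at 22.6 to 27.1 CPM with tCDCA and 79.4 to 90.2 CPM with DMSO, and fell by 1.60 log2 units (SE 0.32, adjusted p 0.00299). Slc9a3r1, encoding EBP50, the scaffold that binds ezrin, was at 87.7 to 120 CPM with tCDCA and 197 to 366 CPM with DMSO, a difference of -1.33 ± 0.20 (adjusted p 2.02e-05). Tmigd1, an adhesion protein of the enterocyte surface, fell by 0.89 (SE 0.19, adjusted p 0.00225).

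Slc9a3r1 was also lower than with DMSO in WT CME(-) (-0.98 ± 0.19, adjusted p 0.0148), Asbt-/- CME(-) (-0.92 ± 0.21, adjusted p 0.0251) and Asbt-/- CME(+) libraries (-0.78 ± 0.19, adjusted p 0.0231), comparisons that share the DMSO libraries. Tmigd1 was lower with tCDCA than with Asbt-/- CME(-) (-0.85 ± 0.19, adjusted p 0.0425) and Asbt-/- CME(+) (-0.74 ± 0.17, adjusted p 0.0142). Rab8a, a small GTPase of apical transport, was lower with tCDCA than with WT CME(+) (-0.64 ± 0.16, adjusted p 0.0312).

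Among core and tip genes, Cobl, an actin nucleator of the brush border, fell and Actg1, encoding cytoplasmic gamma actin, rose. Cobl was at 18.8 to 52.9 CPM with tCDCA and 82.8 to 115 CPM with DMSO (-1.23 ± 0.34, adjusted p 0.0383), and was not called without any single DMSO library, without tCDCA replicate 3 or 4, or with DMSO replicate 1 added (adjusted p 0.0573 to 0.234). Actg1 was at 36.4 to 87.0 CPM with tCDCA and 12.2 to 26.9 CPM with DMSO (1.26 ± 0.28, adjusted p 0.00419). It was also higher with Asbt-/- CME(-) than with DMSO (1.20 ± 0.30, adjusted p 0.0401). Actb, encoding cytoplasmic beta actin, was at 7592 to 8106 CPM with tCDCA and 9563 to 11724 CPM with DMSO. It was not called (-0.43 ± 0.17, adjusted p 0.137). Whether the low Actg1 counts held all reads of that gene was not tested. The intermediate filament genes Krt18 (1.15 ± 0.27, adjusted p 0.0119) and Krt19 (0.62 ± 0.19, adjusted p 0.0498) rose, while Krt20, a keratin of mature villus cells, fell (-0.71 ± 0.21, adjusted p 0.0394). None of these keratin calls held without DMSO replicate 3, and those of Krt19 and Krt20 were also lost without tCDCA replicate 3 or 4. In the list of 10 brush border and terminal web myosins outside the microvillus genes, Myh14 was the 1 called, at -0.49 ± 0.14 (adjusted p 0.0343), and leaving out tCDCA replicate 1, 2 or 4 or any DMSO library ended that call. The direct partners of the adhesion complex, Anks4b (-0.67 ± 0.23, adjusted p 0.0812) and Calml4 (-0.48 ± 0.16, adjusted p 0.0763), did not pass.

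**Figure D4:**
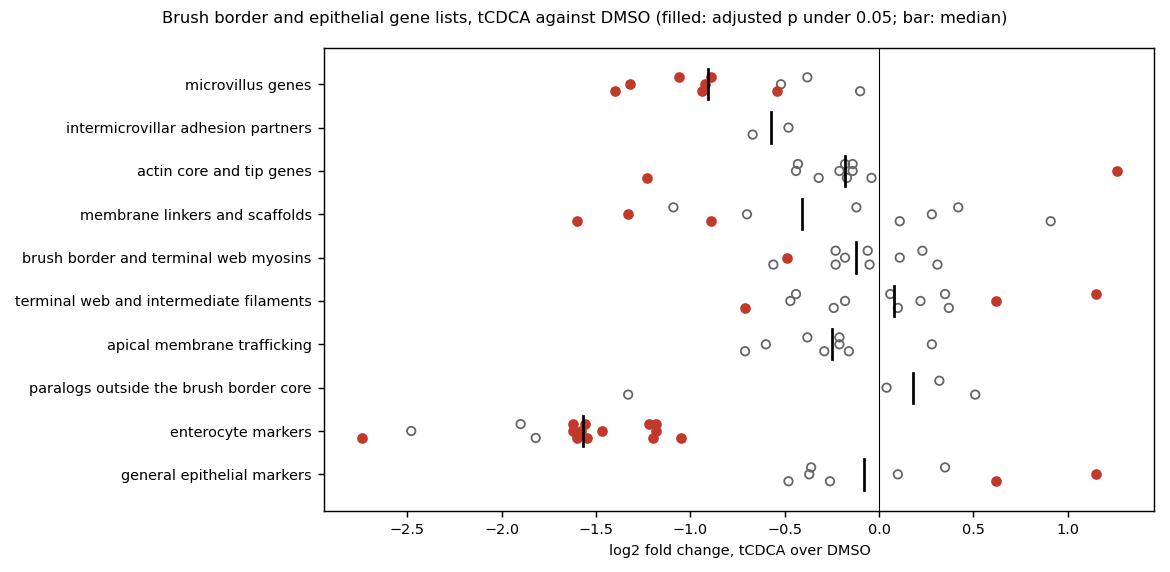
Log2 fold change of tCDCA over DMSO (x axis) for the genes of each list (y axis); filled points have an adjusted p under 0.05 and black bars are list medians. The microvillus genes and the enterocyte markers lie almost wholly to the left, with medians of -0.90 and -1.57, while general epithelial markers straddle 0 with a median of -0.08.

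Markers of the cells that carry the brush border moved in the same direction. Of 16 enterocyte markers 13 fell with tCDCA and none rose, with a median of -1.57. The peptidase gene Mep1b (-1.47 ± 0.19, adjusted p 3.1e-06), the peptidase gene Dpp4 (-1.22 ± 0.18, adjusted p 1.01e-05), the maltase gene Mgam (-1.20 ± 0.18, adjusted p 2.02e-05) and the peptidase gene Anpep (-1.55 ± 0.22, adjusted p 2.16e-05) had the smallest p-values. The summed level of the 16 was 2292 to 4499 CPM in second-run tCDCA libraries and 7912 to 12772 CPM with DMSO. The sum of the 10 microvillus genes was 1818 to 1889 CPM with tCDCA and 3093 to 3567 CPM with DMSO. The ratio of the microvillus sum to that of the 8 general epithelial markers, a list in which Krt18 and Krt19 rose, was 0.309 to 0.392 in second-run tCDCA libraries and 0.51 to 0.649 in DMSO libraries, without overlap. In the first-run tCDCA library that ratio was 0.372, inside the 0.37 to 0.495 of the first-run extract libraries. Set against the enterocyte markers, the microvillus sum went the other way. It was 40.6, 76.7 and 82.4% of the enterocyte marker sum in second-run tCDCA libraries, against 39.1, 27.9 and 35.1% with DMSO.

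**Figure D5:**
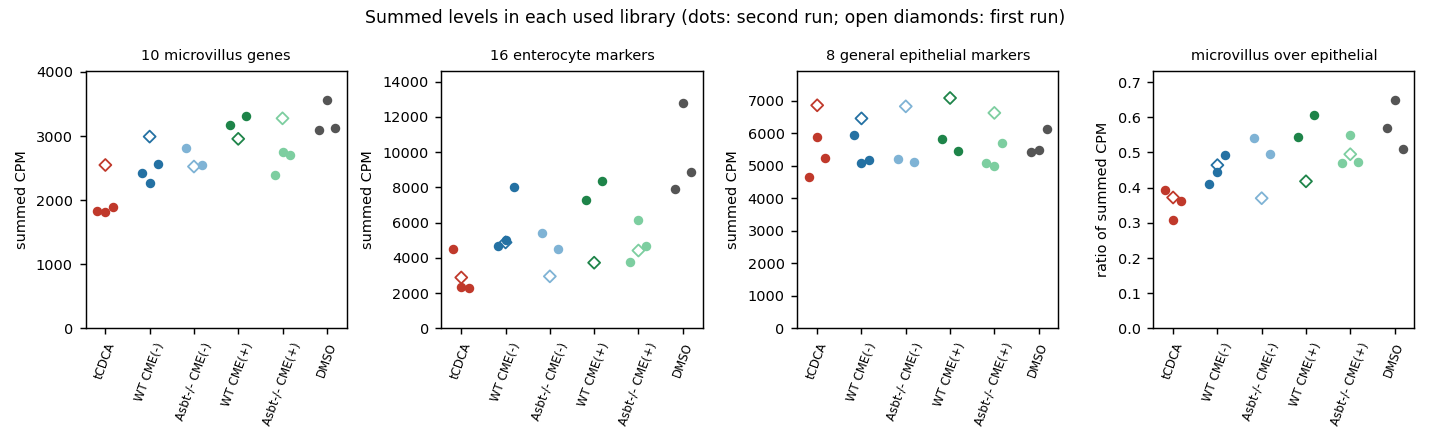
Summed levels (y axes, CPM) of the microvillus genes, the enterocyte markers and the 8 general epithelial markers, and the ratio of the first to the third, in each used library by group (x axis); dots are second-run and open diamonds first-run libraries. The second-run tCDCA dots are the lowest of the microvillus sums, at 1818 to 1889 CPM, while the first-run tCDCA library, at 2548 CPM, lies within the range of the extracts.

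Other cell types did not change alike. Of 8 general epithelial markers 2 rose, Krt18 and Krt19, and none fell. Paneth cell markers had 3 of 6 called higher, with sums of 31165 to 48440 CPM with tCDCA and 23130 to 26933 CPM with DMSO, and enteroendocrine markers 3 of 7 higher, with sums of 322 to 444 CPM with tCDCA and 244 to 279 CPM with DMSO. Defensin genes among the Paneth markers have near-identical copies between which reads could have been divided. Of the goblet cell markers 2 of 7 were lower, with sums of 5006 to 6966 CPM with tCDCA and 5769 to 7456 CPM with DMSO. None was called among the tuft, stem and cycling, smooth muscle, fibroblast, endothelial, neuronal and glial, T and NK, B and plasma, and myeloid markers that were tested. Fibroblast markers summed to 226 to 437 CPM with tCDCA and 450 to 474 CPM with DMSO. The part of these shifts in the values of the microvillus genes was not tested.

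Across the 21 libraries, with run differences taken out, 8 of the 10 genes varied together. Pls1 followed the mean of the other 9 most closely (r = 0.92), then Vil1 (0.87) and Espn (0.86). Eps8 (r = 0.33) and Ush1c (r = 0.41) followed it least. The 28 pairs among the other 8 genes had r from 0.41 to 0.87 with a median of 0.72, and the 17 pairs with Eps8 or Ush1c from -0.02 to 0.59. These are descriptions over libraries of 6 groups, which share the group differences above, and have no test.

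The 6 genes outside the list whose levels ran most like the mean of the 10 were Tm6sf2 (r = 0.932), Dpp4 (0.927), Acy3 (0.926), Myo15b (0.926), Sectm1b (0.923) and Slc5a1 (0.922), over the same 21 libraries. Slc5a1 encodes the sodium-glucose carrier of the apical membrane, Dpp4 an apical peptidase, Tm6sf2 a protein of lipid export and Myo15b a myosin-like protein. All 6 were lower with tCDCA than with DMSO, from -0.71 ± 0.15 for Myo15b to -2.05 ± 0.32 for Acy3. They were picked for likeness to the mean of the 10 genes over these libraries, group differences included. A fall with tCDCA therefore follows from the choice and is not a separate result.

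Vil1, Ush1c and Ezr have exons that overlap a gene on the opposite strand in GENCODE M21. The Vil1 overlap with Usp37 is 49 bases, and Usp37 had 6.93 to 26.3 CPM. That of Ush1c with Gm9860 is 120 bases and that of Ezr with Sytl3 is 4 bases, and neither partner had enough counts to be tested. How reads were assigned by strand is not given in the sources used here, so reads from overlapping stretches cannot be told apart.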

How the data were processed

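The values are raw counts for each gene in 24 libraries, deposited by the authors in 1 table without normalization. FastQC, cutadapt, HISAT2, Picard and the mouse build GRCm39 were used per the submitters' processing notes. Which program counted the reads, with which annotation and strand option, is not given in the sources used here. Symbols were matched to GENCODE M21 (GRCm38), which named 51884 of 57126 identifiers, holding 88.4% of the counts. Exon overlaps were read from its GRCm38 coordinates, a build other than the GRCm39 of the processing notes. Promoter windows came from RefSeq.

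The labels mark 3 libraries as removed, and 21 were used. Counts were filtered with filterByExpr, scaled by TMM and tested in edgeR 4.0.16 (R 4.3.3) with 1 robust quasi-likelihood model of group and run, after a check on simulated data. Since DMSO replicate 1 was left out, the effect of the run in comparisons with DMSO comes from the other groups. The 12 comparisons were contrasts, plus a test over all 6 groups. P-values were two-sided, adjusted by the Benjamini-Hochberg method over 13125 genes and called under 0.05. DESeq2 1.42.0, other scalings and filters, sample choices and left-out libraries were alternatives. The common biological coefficient of variation was 0.266. No pair of replicates differed by as little as sampling noise.

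The extracts CME(-) and CME(+) of the same replicate number came from the same donor animal per the labels for the libraries of the second run, so a fit with the donor as a block was made; deviations of such pairs from their group means correlated at -0.07 to 0.02 over genes. Libraries of other groups share only a number.

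The 10 genes and all lists were chosen with earlier results of these data known. All 10 genes are named throughout, and other brush border genes where called, up to 6 per list; enterocyte markers are the 4 with the smallest p.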

Additional observations from a re-analysis of the deposited data

Results flagged for a closer look

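In the groups of 4 libraries, 1 library stood apart from the other 3 in 3 cases, and each time it was the first-run library. Vil1 was at 472 CPM in Asbt-/- CME(+) replicate 1, against 345 to 347 CPM in replicates 2 to 4. Cdhr2 was at 130 CPM in the same library, against 70.2 to 75.9 CPM. Pls1 was at 231 CPM in tCDCA replicate 1, against 132 to 143 CPM in the other tCDCA libraries. The test was run on 30 combinations of gene and group, and chance alone puts about 1 in 20 of them on the list. The run was a term of the model, and the difference between runs in these genes was not tested by itself.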

How the results depend on the processing

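Over 27 results for a microvillus gene in a comparison and 527 values under alternatives, 130 lost their call with the same direction, 5 changed sign and the rest stayed on the same side of the threshold. The sign changes were all in Eps8, tCDCA against DMSO: 0.02 without scaling factors, 0.06 without the run term, 0.26 without tCDCA replicate 3 and DMSO replicate 3, and up to 0.12 without single libraries (lowest -0.22). Without scaling factors the median log2 fold change of all genes was 0.13 for tCDCA over DMSO (0.00 with them), and across the other comparisons it was -0.18 to 0.22.

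For tCDCA against DMSO, the 7 calls became 3 without scaling factors and 4 without the run term, and 6 to 7 without single libraries. Without replicate 3 of both groups, Cdhr5 (adjusted p 0.13) and Myo7b (0.231) were not called. Cdhr2 was not called with all 24 libraries (0.0508). Myo7b was not called with only the groups compared (0.213) or without the count filter (0.0586). Counts of calls that changed by a factor of at most 1.5 are not all listed here. The genes called over the table, 746, became 427 without scaling factors, 298 with only the groups compared, 176 without the run term, 418 with all 24 libraries, 464 with DMSO replicate 1 added, 324 without replicate 3 of both groups, and 327 to 812 without single libraries (327 without DMSO replicate 3, 496 without tCDCA replicate 4). Espn, Pls1 and Myo1a stayed called throughout.

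Without the run term, no microvillus gene was called in any comparison with an extract group or in the test over all groups (0 each). With only the groups compared, calls were 0 for WT CME(-) and Asbt-/- CME(-) against DMSO and for tCDCA against WT CME(-), 1 for tCDCA against WT CME(+) and 2 against Asbt-/- CME(+). Without scaling factors, calls were 0 for WT CME(-) and Asbt-/- CME(+) against DMSO and for tCDCA against WT CME(-). With all 24 libraries, or with DMSO replicate 1 added, calls were 0 for WT CME(-), Asbt-/- CME(-) and Asbt-/- CME(+) against DMSO and for tCDCA against WT CME(-). With second-run libraries only, calls were 0 for WT CME(-) against DMSO, 1 for tCDCA against WT CME(-) and 1 against Asbt-/- CME(-). Without replicate 3 of tCDCA and DMSO they were 0 for Asbt-/- CME(+) against DMSO and 1 for tCDCA against WT CME(-). DESeq2 gave 2 for WT CME(-) and 2 for Asbt-/- CME(-) against DMSO, 4 for tCDCA against WT CME(-) and 1 against Asbt-/- CME(-). Without the count filter there were 2 for Asbt-/- CME(-) against DMSO and 2 for tCDCA against Asbt-/- CME(-).

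Without single libraries, calls were 0 to 1 for WT CME(-) and Asbt-/- CME(-) against DMSO, 0 to 2 for Asbt-/- CME(+) against DMSO, 0 to 2 for tCDCA against WT CME(-), 0 to 1 against Asbt-/- CME(-), 3 to 6 against WT CME(+), 1 to 4 against Asbt-/- CME(+), and 0 to 1 for CME(-) against CME(+). With the replicate number as a block in place of the run, 7 calls remained for tCDCA against DMSO (650 genes over the table), and 0 for tCDCA against WT CME(-) and for CME(-) against CME(+); with the extract donor as a block, the last was 1. The cause of these changes was not tested. The fit on extract libraries alone with the run term was added after the data were seen. Depth limits Ush1c and Espn most, with as few as 66 and 95 counts in a library.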
